A study of Rattus norvegicus with 18 samples.

Results

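The osteoclast is the cell that dissolves bone, and the 7 genes described here encode parts of its resorption machinery: Acp5, Ctsk, Mmp9, Car2, Clcn7, Calcr and Itgb3. They were chosen by name as probe sets that the platform annotation of the Affymetrix rat genome array pairs with exactly 1 of these symbols. This gave 8 probe sets for 7 genes, of 8740 probe sets tested and 4736 genes with their own symbol. Car2 had 2 probe sets, and the one with the higher mean log2 signal represents it below.

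RNA was measured in the middle part of the left femur of female Sprague-Dawley rats, operated on at 6 weeks (young), 26 weeks (adult) or 52 weeks (older) of age. In the fractured rats a closed transverse fracture was made at mid-shaft after a steel rod had been placed in the marrow canal, and the bone was taken at 3 days or at 1, 2, 4 or 6 weeks. The intact femora came from no-fracture sham controls of the same 3 ages. The tissue held callus, cortical bone and marrow together, so the genes were read in a mixture of cells, and fewer osteoclasts cannot be told apart from less RNA per osteoclast. The 18 arrays analysed here are 1 for each age and time, and each array pools the RNA of 2 rats. All 18 carry the same series number in their labels, and the study's further arrays of these ages and times were not analysed here. The 3 ages therefore stand in as replicates of a time and the times as replicates of an age, and the p-values measure the spread between these arrays.

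Values are signals scaled by the authors so that every array has the same trimmed mean, and the scale has no unit. Signals were raised to a floor of 20 where lower, taken as log2 and fitted with time and age as factors in limma. A probe set was called higher or lower at a Benjamini-Hochberg adjusted p under 0.05 over all 8740 probe sets. Between 12.2% and 20.1% of the probe sets lay below the floor on each array. RNA quality was read from the actin controls, whose 3'/5' ratio was 1.48 to 1.9 on the 12 arrays of 3 days to 4 weeks, below all intact arrays (2.1 to 2.61), and 1.89 to 2.72 at 6 weeks. The ratio thus moved with fracture, and its part in the changes below was tested only as a covariate.

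As background, an osteoclast is a giant cell that forms by fusion of precursors of the monocyte and macrophage line. It fastens itself to bone through integrins and pumps acid into the sealed space beneath it, which dissolves the mineral. Enzymes released into the same space then digest the collagen. During fracture healing such cells remove calcified cartilage and later remodel the new bone. Acp5 (tartrate-resistant acid phosphatase) and Ctsk (cathepsin K, a collagen-cutting protease) are the enzymes by which osteoclasts are most often recognised. Mmp9 is a gelatinase that osteoclasts share with neutrophils. Car2 (carbonic anhydrase II) makes the protons and is also abundant in red cells. Clcn7 exchanges chloride for protons across the membrane of lysosomes and of the ruffled border that faces the bone. Calcr is the receptor for calcitonin, the hormone that halts resorption, and Itgb3 is the beta chain of the integrin that binds bone matrix and is also a platelet protein.

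The start regions of 3 members are shown because Acp5, Ctsk and Clcn7 were the genes with the largest called increases and share a short motif there. The sequences are RefSeq promoter windows of the GRCr8 assembly, 300 bases long with 250 before and 50 after an annotated start, read 5′ to 3′ on the gene's strand. Ctsk lies on the plus strand at chr2:185747298-185747597, the Acp5 window shown on the minus strand at chr8:28943880-28944179, and Clcn7 on the plus strand at chr10:14656011-14656310. Capitals mark the matches of 3 motifs searched on both strands.
Ctsk: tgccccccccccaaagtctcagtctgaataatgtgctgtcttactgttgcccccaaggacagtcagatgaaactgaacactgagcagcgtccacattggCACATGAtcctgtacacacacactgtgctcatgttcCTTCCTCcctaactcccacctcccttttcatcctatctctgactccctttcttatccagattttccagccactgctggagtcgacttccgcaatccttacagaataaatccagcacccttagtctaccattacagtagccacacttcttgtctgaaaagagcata
Acp5: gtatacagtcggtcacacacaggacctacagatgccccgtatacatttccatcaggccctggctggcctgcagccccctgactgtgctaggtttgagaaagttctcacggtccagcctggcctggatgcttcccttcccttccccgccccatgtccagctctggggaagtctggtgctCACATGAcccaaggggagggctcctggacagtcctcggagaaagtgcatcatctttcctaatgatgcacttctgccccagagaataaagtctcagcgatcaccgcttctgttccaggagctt
Clcn7: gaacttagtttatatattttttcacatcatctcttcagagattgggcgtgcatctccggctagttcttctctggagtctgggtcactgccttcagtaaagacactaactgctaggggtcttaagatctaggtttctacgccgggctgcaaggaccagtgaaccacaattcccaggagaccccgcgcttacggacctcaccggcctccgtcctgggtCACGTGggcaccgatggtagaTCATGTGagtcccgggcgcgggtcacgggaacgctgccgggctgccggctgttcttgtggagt
The motif that the 3 windows share is TCATGTG, or CACATGA where it is read on the other strand. It has the letters of the M-box, the element read by Mitf, a transcription factor of osteoclasts and pigment cells. Its letters were chosen with these windows in view. The match began 151 bases before the start in Ctsk, 72 before it in Acp5 and 13 before it in Clcn7. The motif occurred in 3.56% of the 33469 rat windows (1192 windows) and in 3 of the 5 member windows, which belong to 4 members. A second Acp5 window, at chr8:28945881-28946180, and the Calcr window held no match to any of the motifs. Clcn7 also held CACGTG, the palindromic E-box (6.42% of windows), 34 bases before its start. Ctsk held CTTCCTC, the other strand of the PU.1 core GAGGAAG (12.4% of windows), 115 bases before its start. TGANTCA, the AP-1 site, had no match in the member windows and occurred in 7.33% of all windows. A match is a description of the letters and was not tested as a site.

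Acp5, Ctsk and Clcn7 were higher in the fractured femur, Calcr rose less and from low signals, Car2 fell, and Mmp9 and Itgb3 did not pass the test at any time. At 3 days 0 of the 7 genes had risen and 1 (Car2) had fallen, against 18.9% and 20.4% of all probe sets. At 1 week 3 had risen (Ctsk, Clcn7 and Calcr) and 1 had fallen (Car2), against 18% and 17.8%. At 2 weeks 4 had risen (Acp5, Ctsk, Clcn7 and Calcr) and 1 had fallen (Car2), against 16.1% and 16.8%. At 4 weeks 3 had risen (Acp5, Ctsk and Clcn7) and 0 had fallen, against 11.5% and 9.7%. At 6 weeks 3 had risen (Acp5, Ctsk and Calcr) and 0 had fallen, against 8.34% and 7.11%. The median log2 change over the 7 genes was -0.44 at 3 days, 1.23 at 1 week, 2.63 at 2 weeks, 1.85 at 4 weeks and 1.31 at 6 weeks. Over all probe sets it lay between -0.08 and -0.01 at these times.

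From 1 week on, these counts fell to 0 or 1 without the adult or the older arrays. Most calls over all probe sets were also lost at those times. The 3-day member count stayed at 1 in both settings. Without the older arrays 1 member passed at 3 days and 0 at 1, 2, 4 and 6 weeks, where 1844, 1189, 884, 111 and 46 of all probe sets did. Without the adult arrays 1 member passed at 3 days, 1 week and 2 weeks (Clcn7 at the last 2 of these) and 0 at 4 and 6 weeks, where 1742, 1051, 889, 37 and 57 of all probe sets did. Without the young arrays the member counts were 4, 4, 6, 5 and 4, and 2776, 2684, 2458, 2011 and 1636 of all probe sets passed. With all 18 arrays the totals were 3437, 3126, 2868, 1855 and 1350. With the actin ratio entered as a covariate, 1 member passed at 3 days, 1 at 1 week, 1 at 2 weeks, 0 at 4 weeks and 2 at 6 weeks, and the totals were 1340, 1068, 767, 173 and 1212.

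**Figure D1:**
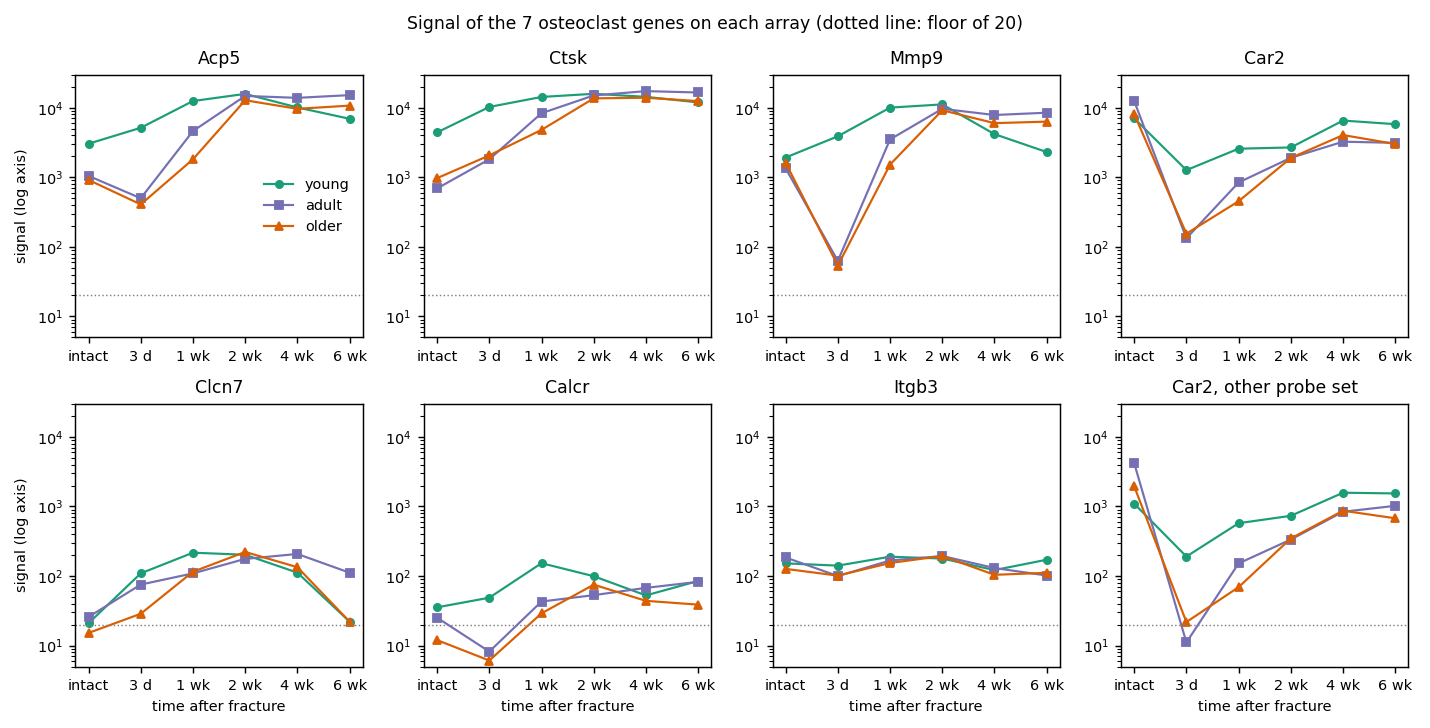
Signal (log axis, no unit) of the 8 probe sets of the 7 genes on each of the 18 arrays, from intact femora through 6 weeks after fracture. Each point is 1 array of 2 pooled rats, lines join the arrays of an age, and the dotted line is the floor of 20; Acp5, Ctsk and Mmp9 come together at 2 weeks, where the 3 ages lie within 12802 to 15814, 13633 to 15850 and 9194 to 11160.

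Ctsk showed the most sustained increase. Its signal at 2 weeks was 15850 in the young, 15016 in the adult and 13633 in the older rats, against 4414, 692 and 972 in intact femora of the same ages. At 4 weeks it was 14335, 17324 and 13916, and at 6 weeks it was 11925, 16552 and 12448. All 9 arrays from 2 to 6 weeks lay above all 3 intact arrays, and the young intact femur was the highest of the intact ones. The increase in limma was 5.78-fold at 1 week (adjusted p = 0.0067), 10.3-fold at 2 weeks (adjusted p = 0.0016), 10.5-fold at 4 weeks (adjusted p = 0.0038) and 9.39-fold at 6 weeks (adjusted p = 0.0059). At 3 days the signal was 10258 in the young, 1814 in the adult and 2063 in the older rats. Each of the 3 was above the intact femur of its own age, by 2.32-fold, 2.62-fold and 2.12-fold, but the ranges overlapped and the change did not pass (log2 change 1.23 ± 0.59 SE, adjusted p = 0.12). It passed without the young arrays (log2 change 1.24, adjusted p = 0.025), a setting that leaves 2 arrays per time.

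Acp5, the phosphatase, dipped before it rose in the adult and older rats. At 3 days its signal was 5147 in the young, 499 in the adult and 407 in the older rats, against 3038, 1048 and 916 in intact femora. The young array had thus gone up and the other 2 had gone down, and the change was not called (log2 change -0.49 ± 0.76 SE, adjusted p = 0.67). Without the young arrays the decrease passed (log2 change -1.12, adjusted p = 0.030). That setting leaves 2 arrays per time and drops the age that had gone up. At 1 week it was 12478, 4619 and 1815, above the intact femur of the same age in all 3 but with overlapping ranges (log2 change 1.72 ± 0.76 SE, adjusted p = 0.10). At 2 weeks it averaged 14462 ± 1529 after fracture and 1667 ± 1189 in intact femora (SD, n = 3 each). This was the highest mean of its time course, a 10.1-fold increase (log2 change 3.33 ± 0.76 SE, adjusted p = 0.0068), and the 3 fractured arrays lay above the 3 intact ones. Later signals parted by age: 10092 in the young, 13866 in the adult and 9644 in the older rats at 4 weeks, then 6932, 15177 and 10723 at 6 weeks. The increase still passed at 4 weeks (7.74-fold, adjusted p = 0.021) and at 6 weeks (7.29-fold, adjusted p = 0.029).

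Mmp9 followed Acp5 with a wider swing. At 3 days its signal was 3886 in the young rats but 62.9 in the adult and 53.8 in the older rats, against 1924, 1344 and 1614 in intact femora. Adult and older arrays had dropped 21.4-fold and 30.0-fold below their intact femora while the young array was 2.02-fold above its own. At 2 weeks the signal was 11160 in the young, 9644 in the adult and 9194 in the older rats, all above the intact arrays. By 6 weeks it was 2307 in the young, 8478 in the adult and 6310 in the older rats. The 3 ages went different ways at 3 days, the error of this gene was the widest of the 7, and no time passed. The log2 change was -2.77 ± 1.25 SE at 3 days (adjusted p = 0.10) and 2.63 ± 1.25 SE at 2 weeks (adjusted p = 0.13). Without the young arrays the 3-day log2 change was -4.66 (adjusted p = 0.0003) and the 2-week change 2.68 (adjusted p = 0.0024). That setting leaves 2 arrays per time and drops the age that went the other way at 3 days. Without the adult or the older arrays Mmp9 did not pass at 2 weeks.

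Neutrophils, which store Mmp9 in granules, were followed by 6 measured markers. Of these, 5 fell at 3 days, 1 week, 2 weeks and 4 weeks, against 20.4%, 17.8%, 16.8% and 9.7% of all probe sets. At 6 weeks 2 of these markers fell, against 7.11%. Their summed signal at 3 days was 14091 in the young, 1055 in the adult and 1143 in the older rats, against 45327, 53202 and 40969 in intact femora. At 2 weeks, where Mmp9 was highest, the sum was 2495, 920 and 1123. S100a8, a calcium-binding protein of these cells, had signals of 4898, 282 and 303 at 3 days and 764, 112 and 194 at 2 weeks. The adult and older arrays at 3 days were thus low in the markers and in Mmp9, whereas at 2 weeks the markers were low on all 3 arrays and Mmp9 was high. The part of neutrophils in the Mmp9 signal at 3 days was not tested.

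Car2 was the only member called lower. At 3 days its signal was 1268 in the young, 133 in the adult and 155 in the older rats, against 7041, 12514 and 8090 in intact femora. Every 3-day array was below every intact array, and the adult array had fallen most, by 94.3-fold, against 5.55-fold in the young. The decrease was 30.2-fold at 3 days (adjusted p = 0.00014), 8.99-fold at 1 week (adjusted p = 0.0024) and 4.19-fold at 2 weeks (adjusted p = 0.023). At 2 weeks the signals were 2684, 1905 and 1896. At 4 weeks they were 6537, 3248 and 4047, still under all intact arrays, but the difference no longer passed (log2 change -1.02 ± 0.61 SE, adjusted p = 0.26), nor did it at 6 weeks (log2 change -1.24 ± 0.61 SE, adjusted p = 0.20). Without the young arrays both passed, with log2 changes of -1.47 (adjusted p = 0.023) and -1.71 (adjusted p = 0.016). Without the adult or the older arrays neither passed. The other Car2 probe set was called at the same 3 times, lower by 47.7-fold, 11.4-fold and 4.73-fold. It lay below the floor on 1 array, the adult one at 3 days. At 4 weeks it was 1577 in the young, 840 in the adult and 869 in the older rats, against 1099, 4205 and 1953 in intact femora. Its ranges thus overlapped at 4 weeks, as they did at 6 weeks, unlike those of the first probe set.

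Red cell precursors carry carbonic anhydrase II as well, and 7 of their markers were measured. All 7 fell at 3 days, 1 week and 2 weeks, where Car2 was called lower, against 20.4%, 17.8% and 16.8% of all probe sets. At 4 weeks and at 6 weeks 2 of these markers fell, against 9.7% and 7.11%. Their summed signal was 5000 to 11578 at 3 days, 2617 to 15690 at 1 week and 8801 to 30155 at 2 weeks, against 46652 to 99702 in intact femora. At 4 weeks it was 33307 to 48217. Alas2, the enzyme that starts haem synthesis in red cell precursors, had signals of 866 in the young, 490 in the adult and 405 in the older rats at 1 week, against 8926, 24170 and 12243 in intact femora. The young array held the highest Car2 signal and the highest erythroid sum at each of the 5 times after fracture. Epor, the erythropoietin receptor, was the only erythroid marker of those named that fell below the floor. The share of red cell precursors in the Car2 signal was not tested.

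**Figure D2:**
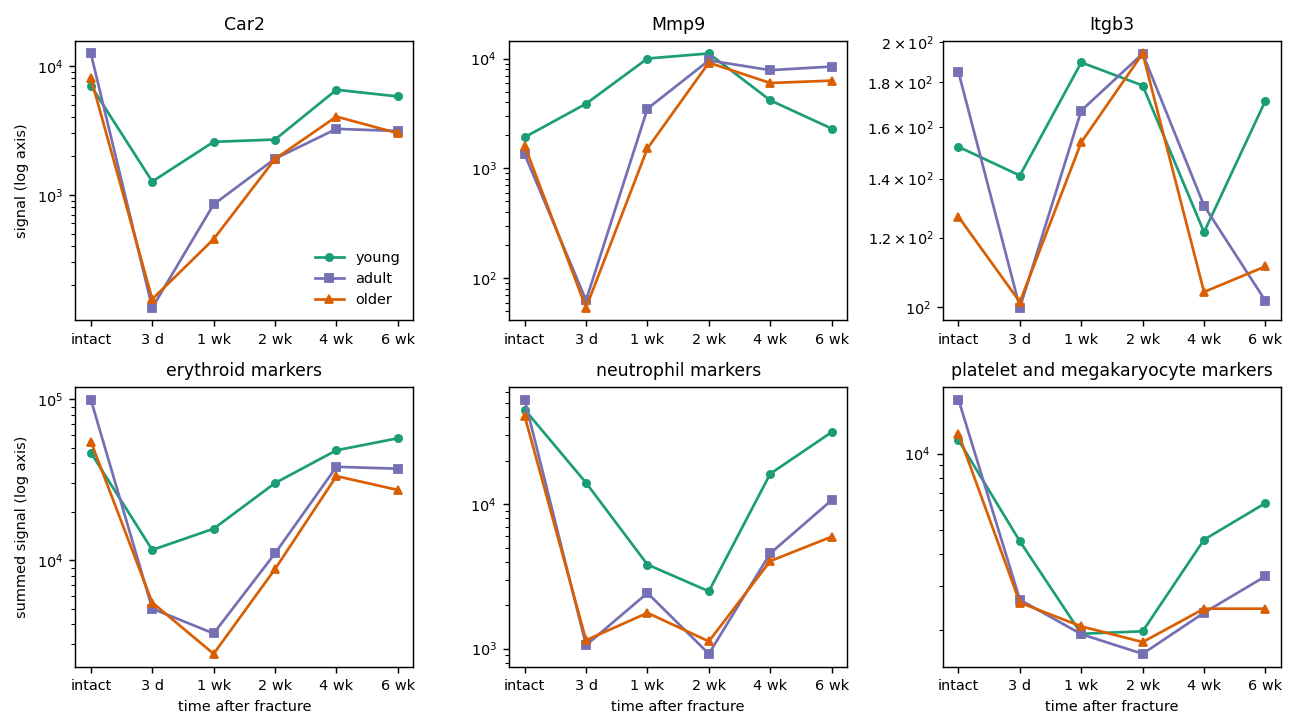
Signals of Car2, Mmp9 and Itgb3 (upper row) above the summed signals of erythroid, neutrophil and platelet markers (lower row), each on a log axis without unit, for the 18 arrays. Points are single arrays and lines join an age; the erythroid sum at 3 days lies at 5000 to 11578, against 46652 to 99702 in intact femora, and the neutrophil sum at 3 days is 14091 in young rats, 1055 in adult and 1143 in older rats.

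Clcn7 rose from signals near the floor. At 2 weeks it was 202 in the young, 176 in the adult and 222 in the older rats, against 21.0, 25.8 and 15.2 in intact femora. All fractured arrays up to 4 weeks lay above the intact ones, the lowest being the older array at 3 days with 28.7. The increase was 6.31-fold at 1 week (adjusted p = 0.0044), 9.01-fold at 2 weeks (adjusted p = 0.0019) and 6.60-fold at 4 weeks (adjusted p = 0.0085). The 3-day change was short of the threshold (log2 change 1.48 ± 0.57 SE, adjusted p = 0.060), and it passed with quantile normalization (adjusted p = 0.038). At 6 weeks the signal was back at 22.1 in young and 22.1 in older rats but 112 in adult rats (log2 change 0.78 ± 0.57 SE, adjusted p = 0.40). A fold against intact femora understates the change where a value was raised to the floor, and with a floor of 100 the calls at 1 and 4 weeks were lost (adjusted p = 0.22 and 0.20).

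Calcr was the member with the lowest signals. At 2 weeks they were 99.4 in the young, 53.1 in the adult and 75.1 in the older rats, against 35.5, 25.2 and 12.0 in intact femora, so the 2-week arrays lay above the intact ones. The highest signal of the series was 153 in young rats at 1 week, where adult rats had 43.0 and older rats 29.1. The increase was 2.20-fold at 1 week (adjusted p = 0.045), 2.81-fold at 2 weeks (adjusted p = 0.015) and 2.48-fold at 6 weeks (adjusted p = 0.049), and the ranges at 1 week overlapped. The change at 4 weeks was short of the threshold (2.06-fold, adjusted p = 0.086). At 3 days the signals were 48.8, 8.20 and 6.10, and 3 of the 18 arrays were below the floor in all. With a floor of 100 no Calcr call was left, since all but 1 array then had the same value.

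Itgb3 moved least. Its signal lay between 99.9 and 194 on all 18 arrays. At 2 weeks it was 178, 194 and 194 in young, adult and older rats, against 152, 185 and 127 in intact femora, and the ranges overlapped. The log2 change was -0.44 ± 0.19 SE at 3 days (adjusted p = 0.086) and 0.31 ± 0.19 SE at 2 weeks (adjusted p = 0.24). Platelets carry the same integrin chain. Of 6 measured platelet and megakaryocyte markers, 3, 3, 4, 5 and 3 fell at 3 days and at 1, 2, 4 and 6 weeks. Over all probe sets 20.4%, 17.8%, 16.8%, 9.7% and 7.11% fell at these times. The summed signal of the 6 markers at 2 weeks was 1608 to 1975, against 11319 to 16386 in intact femora. Itga2b, the platelet partner of Itgb3, fell 11.5-fold at 2 weeks (adjusted p = 9.9e-05), while Itgb3 did not pass. What platelets add to the Itgb3 signal was not tested.

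**Figure D3:**
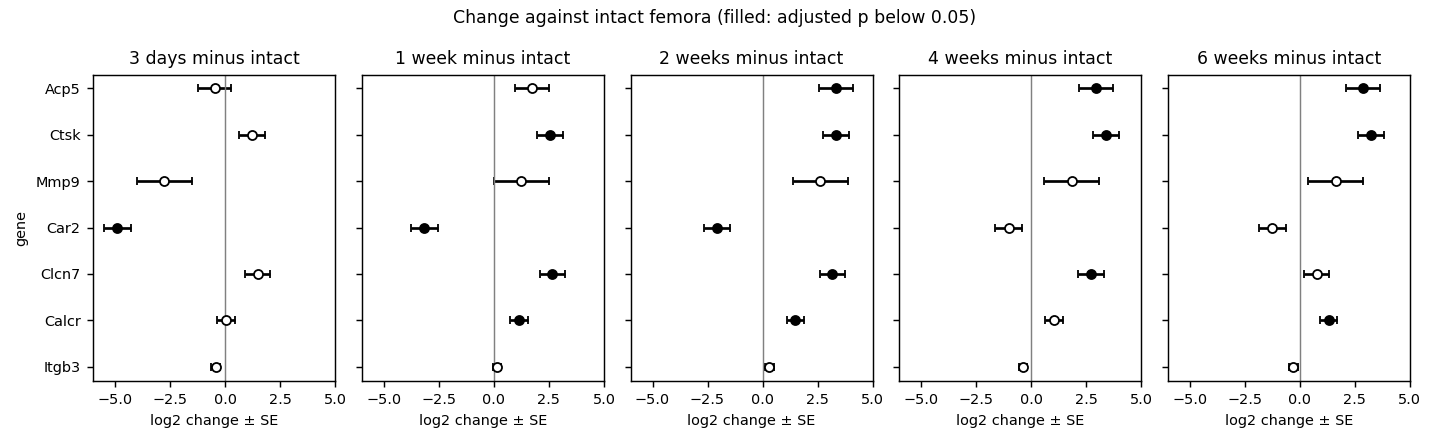
Log2 change of each gene at 5 times after fracture against intact femora (horizontal axis, log2 units, with SE from limma over 18 arrays). Filled points have an adjusted p under 0.05; Ctsk and Clcn7 reach 3.36 and 3.17 at 2 weeks while Car2 lies at -4.91 at 3 days and -2.07 at 2 weeks.

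Neighbouring times after fracture were also compared with each other. None of the 7 members passed between 3 days and 1 week, where 3.5% of all probe sets did, between 1 and 2 weeks (0.103%), between 2 and 4 weeks (1.6%) or between 4 and 6 weeks (0.0915%). In limma the unadjusted p was under 0.05 for 1270, 494, 1170 and 830 of all probe sets in these steps. Between 3 days and 1 week it was 0.0087 for Mmp9, 0.0092 for Itgb3, 0.014 for Acp5 and 0.015 for Car2. For Calcr it was 0.019, for Ctsk 0.048 and for Clcn7 0.063. In the later steps only Itgb3 between 2 and 4 weeks (0.0041) and Clcn7 between 4 and 6 weeks (0.0058) were under 0.05. The largest step was that of Mmp9 between 3 days and 1 week, a log2 change of 4.00 ± 1.25 SE (adjusted p = 0.13). Itgb3 had no overlap between 4 and 2 weeks (104 to 130 at 4 weeks, 178 to 194 at 2 weeks), with a log2 change of -0.67 ± 0.19 SE (adjusted p = 0.11). Clcn7 was lower at 6 than at 4 weeks on the array of each age (log2 change -1.94 ± 0.57 SE, adjusted p = 0.34). In rising order the means of the unlogged Acp5 signals were intact, 3 days and 1, 6, 4 and 2 weeks. For Ctsk the order was intact, 3 days and 1, 6, 2 and 4 weeks. On the log2 scale Acp5 at 3 days lay below intact (log2 change -0.49). Its unlogged 3-day mean of 2018 held 1 high array, the young one with 5147.

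The age differences were largest early, as a description of single arrays. In intact femora 6 of the 7 genes were already lower in older than in young rats (49.7% of all probe sets were), Acp5 by 3.32-fold and Ctsk by 4.54-fold. At 3 days and at 1 week all 7 genes were lower in older than in young rats, against 34.8% and 42.2% of all probe sets. The median older minus young difference of the 7 was -2.31 and -2.39 at these times on the log2 scale. It was -0.26 in intact femora, -0.28 at 2 weeks, -0.07 at 4 weeks and 0.00 at 6 weeks. Adult rats were also below young rats for all 7 genes at 3 days and at 1 week. They were below for 4 of the 7 in intact femora, 6 at 2 weeks and 1 at 4 weeks. The share of all probe sets lower in adult rats was not computed, so the adult counts have no background to be read against. At 2 and at 4 weeks 5 of the 7 genes were lower in older rats, against 45.4% and 50.3% of all probe sets. At 6 weeks 3 of the 7 genes were lower in older rats and 3 were lower in adult rats, among probe sets of which 45.9% were lower in older rats.

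As a share of its highest signal within each age, Acp5 at 1 week was at 78.9% in the young, 30.4% in the adult and 14.2% in the older rats. At 6 weeks it was at 43.8%, 100% and 83.8%. Mmp9 at 1 week was at 89.9%, 36.3% and 16.6% in young, adult and older rats, and at 6 weeks at 20.7%, 87.9% and 68.6%. Ctsk at 3 days was at 64.7%, 10.5% and 14.8%, and the intact femora were at 27.9%, 3.99% and 6.98% of their maximum. Against its own intact femur the young array at 6 weeks was 2.28-fold higher for Acp5 and 1.2-fold higher for Mmp9.

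**Figure D4:**
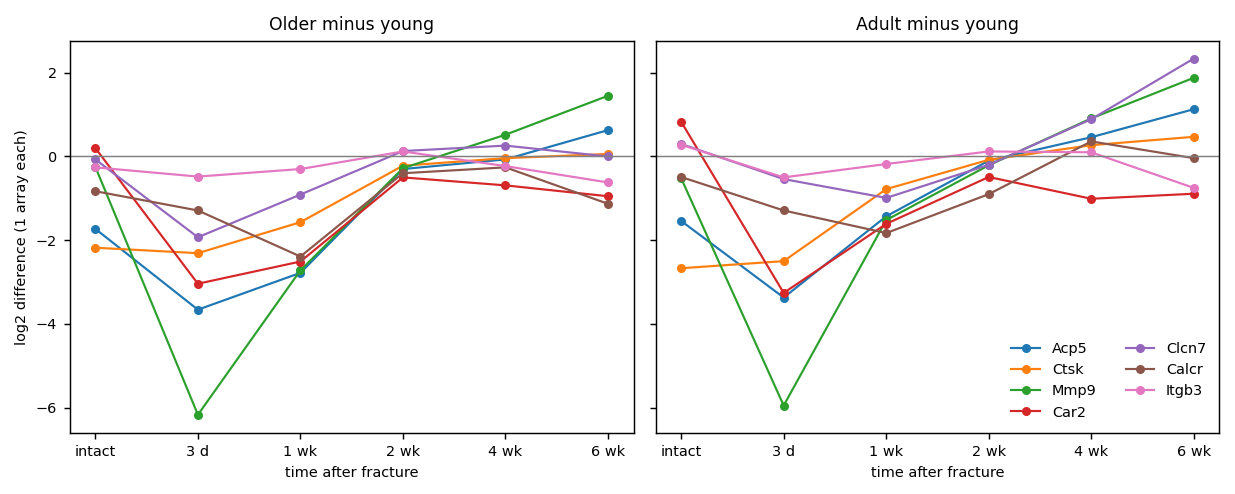
Log2 difference of older minus young (left) and adult minus young (right) rats at each time, 1 array per age, for the 7 genes. Points below 0 are lower than in young rats; all 7 lie below 0 at 3 days and 1 week in both panels, with Mmp9 at -6.17 and -5.95 at 3 days.

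The tests of age called none of the 7. Over the 6 times the older minus young log2 difference ran between -1.32 ± 0.54 SE for Acp5 and -0.30 ± 0.13 SE for Itgb3, with adjusted p between 0.13 and 0.71, and 0.446% of all probe sets passed. For adult minus young 0.0801% of probe sets passed and the members ran between -1.07 for Car2 and 0.30 for Clcn7. Over the 5 fractured times, older minus young was -1.54 ± 0.41 SE for Car2 (adjusted p = 0.11), among 0.366% of probe sets that passed. At an unadjusted p under 0.05 the same 3 tests gave 1230, 836 and 1497 probe sets. For older minus young over the 6 times the unadjusted limma p was 0.0034 for Calcr, 0.014 for Car2 and 0.028 for Ctsk. It was 0.032 for Acp5, 0.048 for Itgb3, 0.19 for Mmp9 and 0.32 for Clcn7. Only Calcr and Car2 were under 0.05 for adult minus young (0.03 and 0.029) and over the fractured times (0.011 and 0.0044).

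Whether the age difference after fracture departed from that in intact femora was tested with 1 intact array per age. No member passed for older minus young, where 3.2% of probe sets did, or for adult minus young, where 6.45% did. Of those 280 and 564 probe sets, 93 and 262 were below the floor on 9 or more arrays. The interaction was -1.74 ± 0.99 SE for Car2 (adjusted p = 0.52) and 1.37 ± 0.99 SE for Ctsk (adjusted p = 0.64) in older rats. In adult rats it was -2.28 ± 0.99 SE for Car2 (adjusted p = 0.26) and 2.15 ± 0.99 SE for Ctsk (adjusted p = 0.29). Without the 3-day arrays the Ctsk interaction in adult rats was 2.65 (adjusted p = 0.044), but the intact arm has no spread of its own here, so this call has no replicate check.

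The early and late stages were also fitted apart, a division made after the values had been seen. At 3 days and 1 week together, older minus young was -3.22 ± 0.47 SE for Acp5 (9.32-fold lower, adjusted p = 0.27), -1.94 ± 0.40 SE for Ctsk (adjusted p = 0.39) and -2.77 ± 0.39 SE for Car2 (adjusted p = 0.26). For Mmp9 it was -4.45 ± 1.08 SE (adjusted p = 0.43). None passed, and 0% of the 8740 probe sets passed in limma, although 643 had an unadjusted p under 0.05. The members' own unadjusted p was 0.00095 for Car2, 0.0012 for Acp5, 0.0025 for Calcr and 0.0048 for Ctsk. It was 0.0098 for Mmp9, 0.051 for Clcn7 and 0.17 for Itgb3. At 4 and 6 weeks the difference was 0.28 ± 0.47 SE for Acp5, 0.01 ± 0.40 SE for Ctsk and 0.99 ± 1.08 SE for Mmp9, and again no member passed, where 0.4% of probe sets did. The late minus early change of the age difference was 3.50 ± 0.67 SE for Acp5 in older rats (adjusted p = 0.23) and 3.19 ± 0.67 SE in adult rats (adjusted p = 0.30). No member passed there and 0.0229% of probe sets did for older rats, and likewise 0.0229% for adult rats.

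The outcome of the early test depended on which probe sets were kept. With a filter at a mean signal of 200, which leaves Acp5, Ctsk, Mmp9 and Car2, all 4 passed at 3 days and 1 week (adjusted p = 0.0044, 0.023, 0.036 and 0.0044), among 37 probe sets in all. Since the stages were divided after the values had been seen, these are not the p-values of a planned test. The log2 differences themselves were the same as without the filter.

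The members varied together to different degrees over the 18 arrays, which share the age and time structure. Pearson's r of the log2 signals was 0.92 for Acp5 with Ctsk, 0.92 for Acp5 with Mmp9 and 0.86 for Acp5 with Calcr. It was 0.58 for Acp5 with Clcn7, 0.12 for Ctsk with Car2 and -0.19 for Clcn7 with Car2. The other genes nearest to Acp5 in pattern were Mt3 (a metallothionein, r = 0.971), Ccr1 (a chemokine receptor of myeloid cells, 0.927), Oxr1 (0.926), Atp6v1b2 (a proton pump subunit, 0.907) and Mmp13 (a collagenase, 0.901). Nearest to Ctsk were Mmp13 (0.942), Cpe (0.925), Serping1 (0.923), Serpine2 (0.918) and Slc16a7 (0.907). Mmp9 was also nearest to Mt3 (0.954) and Oxr1 (0.921). Nearest to Car2 were Alas1 (0.957), a haem synthesis enzyme, and Cyfip2 (0.945). For Clcn7 they were Hs6st1 (0.833) and Lgals3bp (0.829), for Calcr Slc16a7 (0.84) and Mmp13 (0.829), and for Itgb3 Atp2b4 (0.783) and Nfix (0.774).

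Acid secretion needs a proton pump of many subunits and an exchanger that returns bicarbonate to the blood. Of 9 measured genes on this list, 1 rose and 1 fell at 3 days, against 18.9% and 20.4% of all probe sets. At 1 week 1 rose and 1 fell, against 18% and 17.8%. At 2 weeks 4 rose and 1 fell, against 16.1% and 16.8%. At 4 weeks 2 rose and 1 fell, against 11.5% and 9.7%. At 6 weeks 1 rose and 1 fell, against 8.34% and 7.11%. Counts of 1 or 2 in 9 genes are not read as a result. The list's median log2 change at 2 weeks was 0.94, against -0.07 over all probe sets. Slc4a2, the anion exchanger that works with carbonic anhydrase II in osteoclasts, had signals of 1169 in the young, 910.2 in the adult and 929 in the older rats at 2 weeks, against 322, 251 and 289 in intact femora. It had risen 3.48-fold without overlap (adjusted p = 0.0015), at a time when Car2 was down. Of the pump subunits, Atp6v1b2 rose 3.60-fold at 2 weeks (adjusted p = 0.026) and Atp6v1a 2.77-fold (adjusted p = 0.035), while Atp6v0a1 fell 3.26-fold (adjusted p = 0.00077). Tcirg1, the a subunit of the osteoclast pump, was not analysed here.

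Lysosomal enzymes and membrane proteins, which osteoclasts share with most cells, were measured by 16 genes. At 2 weeks 8 had risen and 1 had fallen, against 16.1% and 16.8% of all probe sets. At 6 weeks 6 had risen and 0 had fallen, against 8.34% and 7.11%. The list's median log2 change was 0.48 and 0.51 at these times, against -0.07 and -0.01 over all probe sets. Ctsl, a cathepsin of many cell types, had signals of 2697 in the young, 3008 in the adult and 3038 in the older rats at 3 days, against 639, 381 and 474 in intact femora. It rose 5.98-fold at 3 days (adjusted p = 1.9e-05), when Ctsk had not passed. Lamp2 rose 3.32-fold (adjusted p = 0.00057) and Igf2r 2.62-fold (adjusted p = 4.5e-05) at 1 week. Ctse, a cathepsin of red cells and lymphoid tissue, fell 23.6-fold at 3 days (adjusted p = 1.3e-05).

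Genes of attachment and of the ruffled border mostly rose. Of 13 measured, 10 had risen at 3 days, at 1 week and at 2 weeks, 8 at 4 weeks and 6 at 6 weeks. Over all probe sets 18.9%, 18%, 16.1%, 11.5% and 8.34% had risen. In the same order 1, 0, 2, 1 and 0 of the 13 had fallen, against 20.4%, 17.8%, 16.8%, 9.7% and 7.11%. The list's median log2 change was 1.11 at 2 weeks, against -0.07 over all probe sets. Itgav, the alpha chain that pairs with Itgb3 on osteoclasts, had a log2 change of 1.57 at 2 weeks and was called higher at all 5 times, whereas Itgb3 was called at none. Matrix ligands of that integrin rose too. Spp1 (osteopontin) had signals of 15968 in the young, 10612 in the adult and 11909 in the older rats at 2 weeks, against 6864, 1971 and 1790.2 in intact femora, a 4.37-fold increase (adjusted p = 0.00087). Ibsp (bone sialoprotein) rose 8.15-fold at 2 weeks (adjusted p = 0.0038) and Fn1 (fibronectin) 4.43-fold at 1 week (adjusted p = 0.0022). Rab7a, a small GTPase of vesicle traffic to the ruffled border, rose 5.13-fold at 2 weeks (adjusted p = 0.0072). Spp1, Ibsp and Fn1 are also made by bone-forming and connective tissue cells. Of 8 measured osteoblast and bone matrix markers, a list that also holds Ibsp, 6 rose at 2 weeks, against 16.1% of all probe sets. At that time 0 of them had fallen, against 16.8%. That list's summed signal was 88237 to 108254 at 2 weeks, against 24186 to 90122 in intact femora, and its part in these genes was not tested.

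None of the measured relatives of Car2 and Clcn7 was called higher after fracture. With so few genes measured, this is not read as a result about either family. Over all probe sets 18.9%, 18%, 16.1%, 11.5% and 8.34% rose in time order, and 20.4%, 17.8%, 16.8%, 9.7% and 7.11% fell. Of 5 other carbonic anhydrases measured, 0 rose at any time after fracture and 1, 2, 1, 0 and 0 fell in time order. Car3, the muscle and fat isoform, had signals of 346 in the young, 380.1 in the adult and 454 in the older rats at 3 days, against 2040, 2402 and 5003 in intact femora, and fell 7.43-fold (adjusted p = 0.00038). Of 4 other chloride channel genes, 0 rose and 2, 2, 3, 1 and 1 fell in the same order. Clcn3 fell 2.30-fold at 1 week (adjusted p = 0.00079), a time at which Clcn7 was up. Clcn5 was called lower at 2 weeks (adjusted p = 0.023), but 2 of its 3 signals there were under the floor (23.4, 14.5 and 8.10, against 48.3, 138 and 57.8 in intact femora), so no fold is given.

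Of the signals that promote or restrain osteoclast formation, 16 of 20 listed genes were measured. The counts therefore give no direction for osteoclast formation. At 3 days 5 had risen, the inhibitor Tnfrsf11b among them, and 1 had fallen, against 18.9% and 20.4% of all probe sets. At 1 week 4 had risen and 1 had fallen, against 18% and 17.8%. At 2 weeks the counts were again 4 and 1, against 16.1% and 16.8%. At 4 weeks 2 had risen and 1 had fallen, against 11.5% and 9.7%. At 6 weeks 2 had risen and 0 had fallen, against 8.34% and 7.11%. Il6, a cytokine of early inflammation, had signals of 416 in the young, 575 in the adult and 1252 in the older rats at 3 days, against 8.20, 18.4 and 11.8 in intact femora, all of which lay below the floor. On the floored scale it rose 33.5-fold (adjusted p = 1.9e-05). Tnfrsf11b, the decoy receptor osteoprotegerin that blocks osteoclast formation, rose 2.65-fold at 3 days (adjusted p = 0.0031). Pth1r, the parathyroid hormone receptor of osteoblasts, rose 3.89-fold at 3 days (adjusted p = 0.00011), and Il1b fell 2.51-fold at 1 week (adjusted p = 0.0026). Tnfsf11 and Tnfrsf11a, the central ligand and receptor, were not analysed here.

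Among 13 measured genes of osteoclast transcription and signalling, 4 rose and 4 fell at 3 days, against 18.9% and 20.4% of all probe sets. At 1 week 4 rose and 3 fell, against 18% and 17.8%. At 2 weeks the counts were again 4 and 3, against 16.1% and 16.8%. At 4 weeks 1 rose and 2 fell, against 11.5% and 9.7%. At 6 weeks 1 rose and 1 fell, against 8.34% and 7.11%. The AP-1 genes Fos and Junb rose 2.97-fold and 2.98-fold at 3 days (adjusted p = 0.00015 each). Syk, a kinase of osteoclasts and of blood cells, had signals of 416 in the young, 247 in the adult and 191 in the older rats at 3 days, against 1663, 1774 and 1240.2 in intact femora. It fell 5.71-fold (adjusted p = 2.9e-05). Src, a kinase needed for the ruffled border, was called lower at 3 days (adjusted p = 0.012) from signals near the floor (16.5, 41.5 and 20.5, against 46.0, 141 and 56.0 in intact femora). Macrophages arise from the same precursors as osteoclasts. Of 7 measured macrophage markers 2 rose and 2 fell at 3 days, against 18.9% and 20.4% of all probe sets. At 2 weeks 3 rose and 1 fell, against 16.1% and 16.8%. The median log2 change of these markers at 2 weeks was 0.52, against -0.07 over all probe sets. Their summed signal was 7340 to 13843 at 2 weeks, against 15765 to 18283 in intact femora, but most of it was Lyz2, which fell 2.15-fold at 1 week (adjusted p = 0.0075). Without Lyz2, a sum taken after the values had been seen, it was 3371 in the young, 2601 in the adult and 3780 in the older rats at 2 weeks, against 1484, 2086 and 2531 in intact femora. Mmp12, a macrophage elastase, rose 22.9-fold at 6 weeks (adjusted p = 0.0012). The sum without Lyz2 was higher at 2 weeks at each age, whereas the full sum was lower at each age. Mmp12 is part of both, with signals of 716, 464 and 1141 at 2 weeks in young, adult and older rats. In intact femora Mmp12 was at 44.5, 46.5 and 30.7. Itgam, also on the list, was called lower at 3 days (adjusted p = 0.023) from signals near the floor. The part of macrophages in the members' signals was not tested.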

How the data were processed

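The authors hybridised RNA to Affymetrix rat genome arrays and deposited signal intensity from Microarray Suite 5.0, scaled to a target of 500 (trimmed mean 500.7 to 500.8, checked). Each value is therefore a share of its array's signal, and other transcripts rise in share where abundant ones leave the tissue. Array signals have no sequencing depth, and 1 array per age and time limits the precision. Detection calls were not used here. The authors found good correlation with RT-PCR when, among other conditions, signals stayed clear of the detector's upper limit. Whether the high signals of Acp5, Ctsk and Mmp9 were compressed near that limit was not tested.

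Of 8799 probe sets, 59 controls were left out. By the platform annotation 7006 of the rest name 1 gene, 308 several and 1426 none. Probe sets whose names end in _s_at can read more than 1 transcript, which applies to Acp5, Calcr and the other Car2 probe set. Log2 signals (floor 20) were fitted in limma 3.58.1 (R 4.3.3) with an intensity trend and Benjamini-Hochberg adjustment. Time and age were additive (10 residual degrees of freedom), age was nested in intact or fractured state (8), or, as an addition after seeing the data, in stage (4). The prior degrees of freedom were 0.949, 0.896 and 0.883. The script was tested on simulated data.

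The members and gene lists were chosen with earlier results of these data known. All 7 members are named, with up to 4 called genes of the largest change per list and the 5 (Acp5, Ctsk) or 2 other genes nearest in pattern. Itgav and some genes marked as not analysed are named besides, Itgav after its values were seen. Alternatives were a floor of 100, quantile normalization, log2(signal + 50), centring on the median, a filter at a mean signal of 200, no age term, the actin ratio as covariate, no intensity trend, the arrays of 2 times alone, a t-test over the arrays, the other Car2 probe set, and leaving out an age or a time. Medians by list are given beside those of all probe sets, without a set test.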

Additional observations from a re-analysis of the deposited data

How the results depend on the processing

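The number of members called against intact femora was 1, 4, 5, 3 and 3 at 3 days, 1, 2, 4 and 6 weeks. It became 2 at 3 days with quantile normalization, with median centring and with a filter at a mean signal of 200. An unpaired t-test over the arrays gave 0, unadjusted at 0.005 or after Benjamini-Hochberg. Over all probe sets these 3-day settings called 3370, 3390, 2331, 1120 and 1422. The methods name a t-test, but their 0.005 threshold belongs to the probe-level comparison of 2 arrays. At 1 week the number of members became 2 with a floor of 100, 1 with the actin ratio and 1 by either form of the t-test. It was 0 on the arrays of the 2 times alone. The totals over all probe sets were 2437, 1068, 1107 (unadjusted), 1400 (Benjamini-Hochberg) and 356. At 2 weeks it became 3 with the filter (4 members left), 3 with no age term and 1 with the actin ratio. It was 0 on the arrays of the 2 times alone. The totals were 1965, 2747, 767 and 0, so the last setting called no probe set at all. At 4 weeks it became 0 with the actin ratio, by the t-test after Benjamini-Hochberg and on the arrays of the 2 times alone. The totals there were 173, 46 and 0. At 6 weeks it became 0 by both forms of the t-test and on the arrays of the 2 times alone. The totals there were 248 (unadjusted), 12 (Benjamini-Hochberg) and 0. Leaving out 1 age, which leaves 2 arrays per time, gave 1 to 4 calls at 3 days, 0 to 4 at 1 week, 0 to 6 at 2 weeks, 0 to 5 at 4 weeks, 0 to 4 at 6 weeks and 0 to 3 between 3 days and 1 week.

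Where no member had been called, the filter gave 1 between 3 days and 1 week and 1 for older minus young over the fractured times. It gave 4 for older minus young at 3 days and 1 week and 1 for its late minus early change. Over all probe sets the filter gave 332, 308, 37 and 26 in these 4 tests. Adding 50 before the log gave 1 and 2 for older minus young over the fractured times and at 3 days and 1 week. These were among 185 and 9 probe sets in all. The t-test at 0.005 gave 1 between 2 and 4 weeks, among 156 probe sets in all. Without the 3-day arrays, adult minus young, fractured minus intact, gave 1, so its range over left-out times was 0 to 1, with 1 intact array per age and no spread in that arm.

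Signs turned for Calcr at 3 days, to -0.10 with 50 added, -0.45 with the actin ratio and -0.17 without the young arrays (0.04 as reported, and 0.23 at most with an age left out). Mmp9 turned with the actin ratio, to -1.21 at 1 week and -0.32 at 4 weeks, and Itgb3 in the late minus early difference of older and young, to 0.11 with quantile normalization and 0.10 with median centring. None of these was called. The cause of these changes was not tested, apart from the fewer arrays or probe sets that some settings leave. No paired analysis was possible because the labels give all 18 arrays the same series number and no other replicate number, and age is already a term of the fit.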
